A study of Hordeum vulgare with 28 samples.

Results

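A group of 32 barley genes was upregulated by every form of leaf damage tested, that is by 2 species of spider mites and by sandpaper wounding, at both time points. A gene was a member if its log2 ratio to the control was at least 2 in each of the 6 treatments. Ratios were taken between group means of library-scaled counts (CPM, each count over its library's total, on the usual scale) with 0.5 CPM added to both, and the members are 32 of the 25592 genes in the count table (21860 had a count in at least 1 library). Leaf number 5 of 30-day-old plants of the cultivar Morex was used throughout. *Oligonychus pratensis*, a mite specialized on grasses, was on the leaves for 24 h (O24) or 2 h (O2), and *Tetranychus urticae*, a generalist mite, likewise (T24 and T2). Adult female mites numbered 200 per leaf section at 24 h and 400 at 2 h. Leaves wounded with 60 grit sandpaper were collected 24 h (W24) or 2 h (W2) later. One group of untreated leaves (C) served both time points, and all leaves, the controls included, carried TangleFoot wax barriers. Each group had 4 libraries, and the study describes them as biological replicates, each from the tissue of a leaf enclosure. Mite number and time changed together, so a difference between the time points of a mite also holds that difference in number. By the study's account, released mites could take up to several hours to begin feeding and then fed continuously, whereas wounding was done at once. Onset and duration of damage therefore cannot be told apart from its kind in comparisons of feeding with wounding.

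When a leaf is wounded or fed upon, fatty acids released from chloroplast membranes are oxidized and turned into jasmonic acid (JA), the hormone best known for defence against chewing and cell-content feeding animals. In *Arabidopsis*, the isoleucine conjugate of JA brings JAZ repressor proteins to their receptor, COI1, and their loss frees transcription factors that switch on defence genes. The same factors raise transcripts of JA biosynthesis enzymes and of the JAZ repressors themselves, so that early wound genes rise within minutes to hours and decline once the stimulus ends.

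The libraries held 11.7 M to 38.3 M counts. Light-harvesting genes marked the tissue as leaf, as the 5 orthologues of *Arabidopsis* LHCB2.4, LHCB3, LHCB6, LHCA1 and LHCA5 were measured in every group. Their sum was 3383 CPM ± 804 in O24 (SD, n = 4), 6900 ± 1537 in T24, 12903 ± 1426 in W24, 14570 ± 1811 in O2, 15375 ± 1624 in T2 and 6424 ± 967 in W2, against 17139 ± 2320 in C. It was lowest in the 3 groups where the members were highest, and its part in their values was not tested. The fall in W2 was not shared by the LHCA5 orthologue MLOC_12843, at 148 CPM ± 17.2 in W2 against 132 ± 14.9 in C (SD, n = 4). The libraries were made from whole leaf sections, so a difference in the number of responding cells and one in the RNA per cell cannot be told apart.

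The members were chosen by their mean CPM in each treatment relative to C, and these values are therefore described without a test. The median log2 ratio to C over the 32 members was 5.82 in O24 (3.18 to 8.64), 5.07 in T24 (3.05 to 8.44), 2.86 in W24 (2.04 to 6.73), 3.59 in O2 (2.06 to 6.21), 3.32 in T2 (2.05 to 5.95) and 5.12 in W2 (2.53 to 9.28). The median over all genes of the count table, those without a count included, lay at or near 0 in every treatment. Thus the members stood highest in leaves with mites at 24 h and in freshly wounded leaves, and lowest in the early mite groups and in leaves wounded 24 h before. Together they took 0.632% ± 0.124 of all counts in O24 (SD, n = 4), 0.697% ± 0.120 in T24, 0.105% ± 0.010 in W24, 0.152% ± 0.082 in O2, 0.132% ± 0.034 in T2 and 0.731% ± 0.178 in W2, against 0.0110% ± 0.0021 in C. For 12 members the highest ratio was in O24, for 8 in T24 and for 12 in W2. The lowest ratio was in W24 for 17 members, in T2 for 12, in O2 for 2 and in W2 for 1.

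The treatments limited the group unequally. A ratio of at least 2 was reached by 1549 genes in O24, 840 in T24, 272 in W24, 164 in O2, 146 in T2 and 1143 in W2. Another 57 genes passed in all treatments but W24, against 8 that failed only in T2, 3 only in O2, 2 only in W2, 1 only in O24 and 0 only in T24. Just inside the threshold were MLOC_59941, with a ratio of 2.04 in W24, and MLOC_54046, with 2.05 in T2. Just outside were MLOC_57761, with 1.93 in T2, and MLOC_73706, with 1.92 in W24.

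**Figure D1:**
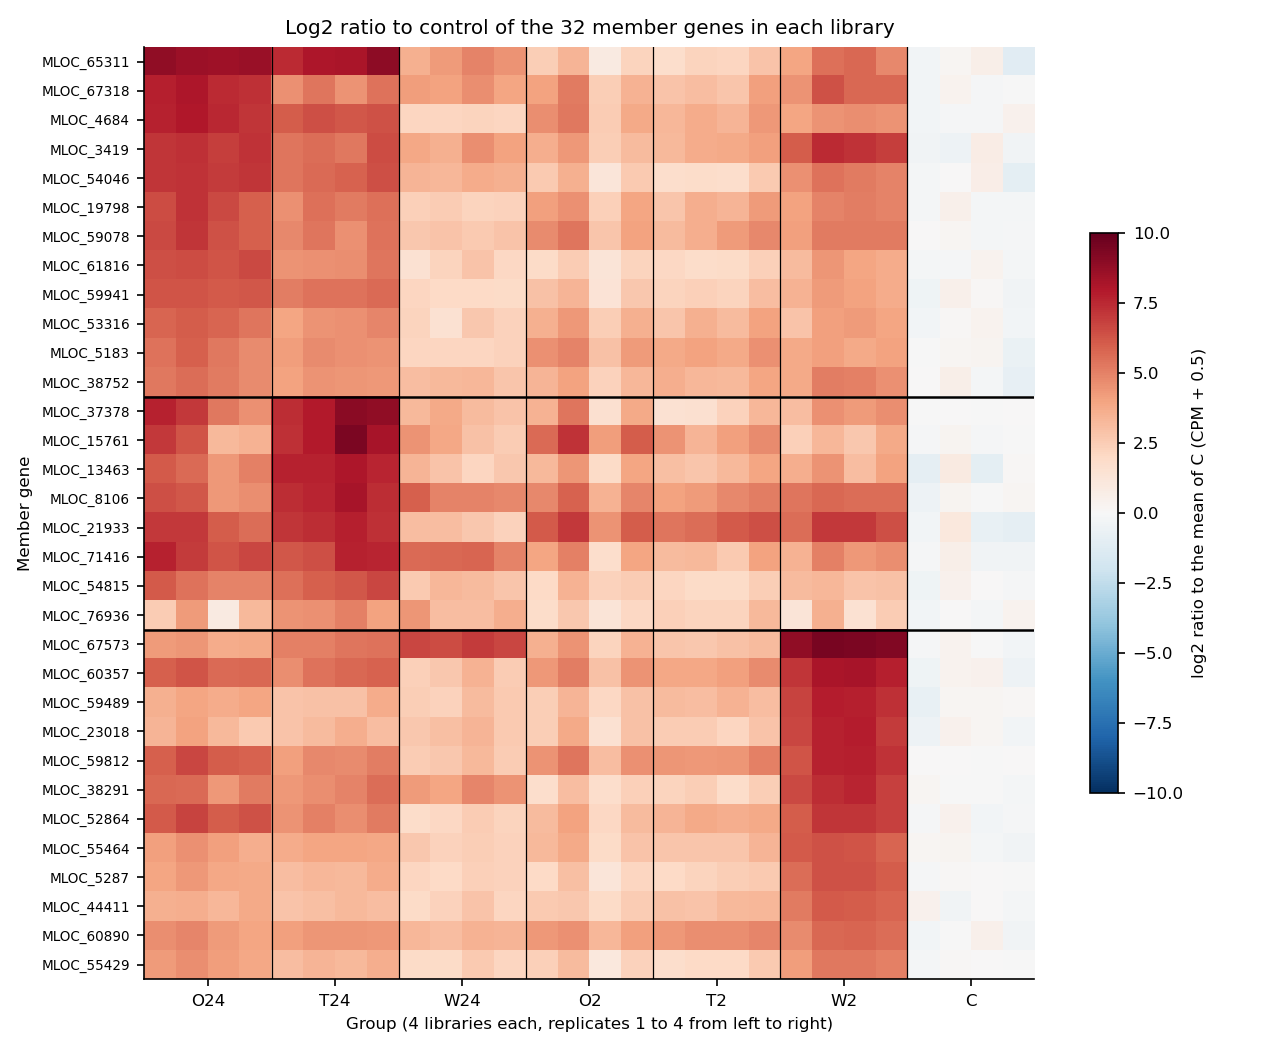
Log2 ratio of each library to the mean of C (CPM with 0.5 added) for the 32 members, 1 row per gene and 1 column per library, with 4 libraries per group. Rows are blocked, from the top, by the treatment with the highest ratio (12 in O24, 8 in T24, 12 in W2). Red is above C, and the W24, O2 and T2 columns are paler than O24, T24 and W2 in most rows.

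Most members were scarcely transcribed in undamaged leaves. Their mean in C ran from 0.0267 to 39.8 CPM with a median of 0.754 CPM, against a median of 5.35 CPM over all genes with a count. Of the 32, 18 lay under 1 CPM in C and 2 over 10 CPM, and 27 had a count in every C library. All 32 members had each of their 24 treated libraries above each C library. This non-overlap was found for 33.4% of genes with a count in O24, 30% in T24, 15.4% in W24, 5.01% in O2, 5.25% in T2 and 24.7% in W2. In edgeR's quasi-likelihood test against C, a gene was called where its log2 fold change exceeded 1 in size and its p, adjusted by Benjamini-Hochberg, was under 0.01. All 32 members were called higher in O24, T24, W24 and W2 and 31 in O2 and in T2. The shares of all 16948 tested genes called higher were 20% in O24, 14.1% in T24, 5.72% in W24, 2.63% in O2, 2.47% in T2 and 19.3% in W2, and since the rule used these contrasts nothing is read from the comparison. The ratios of members with a low mean in C depend on the 0.5 CPM added, and 12 of the 32 failed the rule with 1 CPM added. For 6 members the 4 C libraries also held fewer than 10 counts together. MLOC_59812, named after its values were seen, had the fewest, 3, and its pooled counts gave ratios over C of 1388 in O24 (exact 95% binomial interval 475 to 6734), 112 in W24 (38 to 547) and 3271 in W2 (1119 to 15866). These intervals cover counting error only.

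To read the members in libraries that had not chosen them, the rule was applied with 1 replicate number left out of every group, and the left-out libraries were then examined. Between 24 and 36 genes were chosen in the 4 rounds, and not all were members. With replicate 1, 2, 3 and 4 left out in turn, 30 of 33, 29 of 36, 31 of 36 and 24 of 24 chosen genes were members. The shares that follow pool the 4 rounds, so a gene chosen in several rounds was counted in each. A log2 ratio of at least 2 was reached by 98.4% in the left-out O24 library, 99.2% in T24, 85.3% in W24, 80.6% in O2, 79.1% in T2 and 93.8% in W2. The weakest round was O2 with replicate 3 left out, where 18 of 36 chosen genes (50%) reached 2 and all 36 lay above 0.

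MLOC_21933 is the one member that the orthologue table used here pairs with an *Arabidopsis* gene, AT5G42650. That gene encodes allene oxide synthase (AOS), the chloroplast enzyme that turns a lipoxygenase product into the unstable allene oxide from which JA is made. MLOC_21933 also had the highest mean of the 6 log2 ratios (5.94). It had 269, 281, 134 and 95.9 CPM in O24, 288, 345, 446 and 324 CPM in T24, and 17.2, 17, 13.1 and 9.82 CPM in W24. At 2 h it had 140, 279, 46.9 and 138 CPM in O2, 85.5, 98.7, 140 and 180 CPM in T2, and 97.5, 275, 269 and 176 CPM in W2, against 1.18, 3.65, 0.746 and 0.625 CPM in C. The ranges of O24, O2, T2 and W2 overlapped. The W24 libraries lay below those of the other 5 treatments, with a mean of 14.3 CPM where the others averaged 126 to 351 CPM, and the T24 libraries lay above them all. The time points of wounding differed (W24 over W2, log2 fold change -3.97 ± 0.50 SE, adjusted p = 2.39e-07 by edgeR), whereas those of *O. pratensis* did not pass the test (O24 over O2, 0.23, adjusted p = 0.651). For *T. urticae* the value was 1.28 with an adjusted p of 0.0202. Against wounding at 24 h the AOS orthologue was higher with both mites, by 3.68 in O24 (adjusted p = 5.89e-07) and by 4.52 in T24 (adjusted p = 1.71e-07). At 2 h no difference from wounding passed the test (O2 over W2, -0.52, adjusted p = 0.309, and T2 over W2, -0.73, adjusted p = 0.152). Its time course with feeding differed from that with wounding by 4.20 for *O. pratensis* (adjusted p = 3.7e-06) and by 5.25 for *T. urticae* (adjusted p = 2.63e-07). O24 over T24 gave -0.84 (adjusted p = 0.146).

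**Figure D2:**
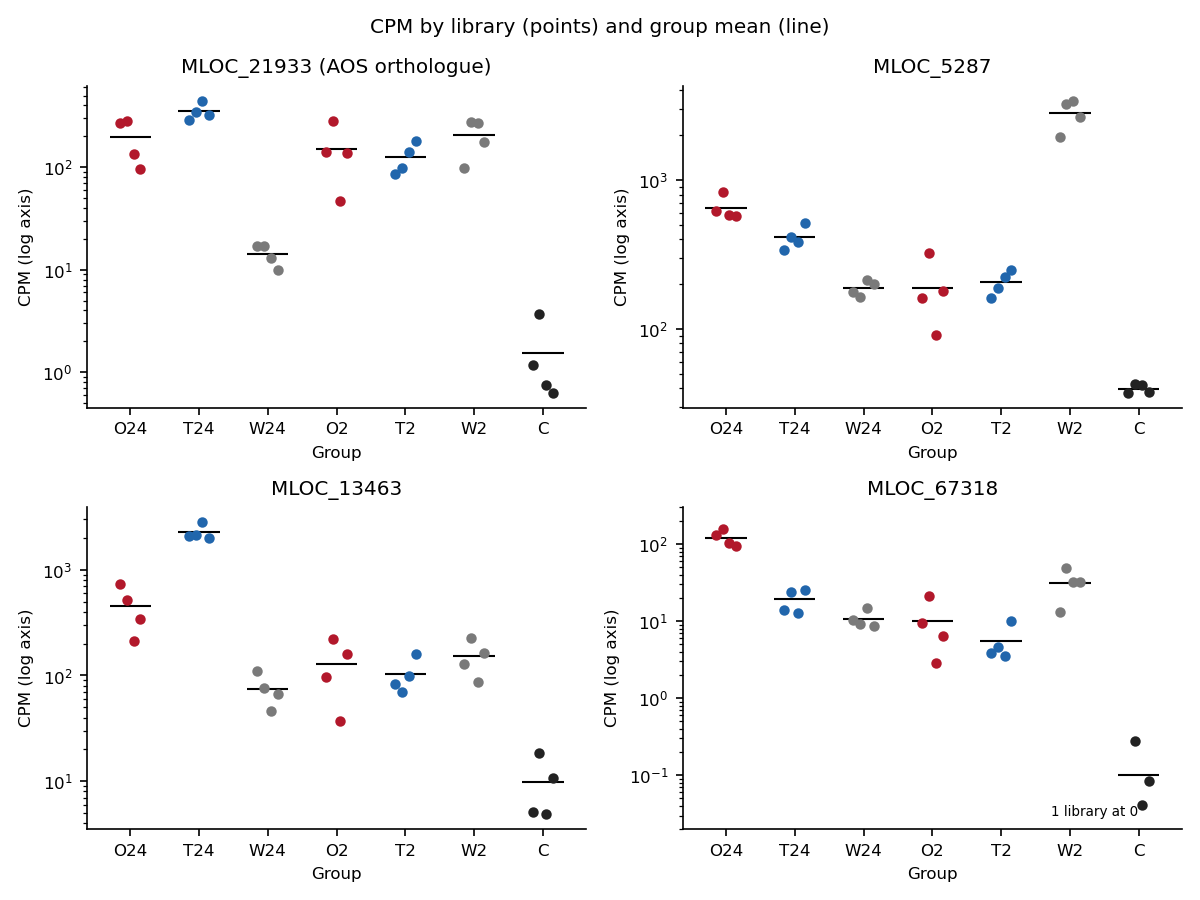
CPM on log axes in each library (points) with the group mean (lines), for the AOS orthologue MLOC_21933 and for MLOC_5287, MLOC_13463 and MLOC_67318. The AOS orthologue lies between 9.82 and 17.2 CPM in W24, below every library of the other 5 treatments, while MLOC_5287 is highest in W2, MLOC_13463 in T24 and MLOC_67318 in O24.

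Known genes of the JA pathway and of defence were looked up through the part of the orthologue table used here, which matched 8 *Arabidopsis* loci of the JA, salicylate and defensive-protein lists, out of 70 listed. The AOS orthologue was the only member among them. It was also the only match among the 25 listed loci of JA biosynthesis and turnover, so the others were not examined. Of the 3 matched JA signalling genes, 2 were called higher than C in O24, 2 in T24, 1 in W24, 1 in O2, 2 in T2 and 3 in W2. MLOC_12120, the orthologue of the repressor gene JAZ1, was called in all 6 and missed membership through W24 alone. It averaged 392 CPM ± 43.0 in O24 (SD, n = 4 here and for the values that follow), 279 ± 40.3 in T24, 64.9 ± 3.65 in W24, 159 ± 62.4 in O2, 194 ± 47.5 in T2 and 376 ± 94.1 in W2, against 20.9 ± 4.88 in C, and its log2 ratio in W24 was 1.61. The orthologues of NINJA (MLOC_31759), the adaptor that joins JAZ proteins to a corepressor, and of JAM2 (MLOC_33189), a bHLH repressor of JA responses, were farther from the threshold, with their largest ratios in W2 (2.19 and 1.12).

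Both matched defensive-protein genes failed the rule in a single treatment. MLOC_13056, the class IV chitinase orthologue, had a ratio of 5.10 in O24 and 0.94 in W24, and was called higher than C in all 6 treatments. The serine proteinase inhibitor orthologue MLOC_2643 averaged 543 CPM ± 371 in O24, 1477 ± 535 in T24, 151 ± 72.9 in W24, 47.1 ± 41.3 in O2, 12.1 ± 3.14 in T2 and 15.3 ± 5.60 in W2, against 2.93 ± 3.36 in C (SD, n = 4), and was called in all treatments but T2, where its ratio was 1.88. Of the salicylate and phenylpropanoid genes, PAD4 (MLOC_1340), a regulator of salicylate signalling, was called higher than C in O24, T24 and W2 with ratios of at most 1.95, and C3H (MLOC_16097), a hydroxylase of the phenylpropanoid pathway, was called lower in W2 alone. None of the 3 terpene synthase genes named by the study was a member. MLOC_56812 and MLOC_76989 had no count in the C libraries. MLOC_56812 averaged 6.11 CPM ± 5.27 in O24 (SD, n = 4), 5.66 ± 2.97 in T24 and 0.0311 in W24. At 2 h it averaged 2.69 ± 2.93 in O2, 1.35 ± 0.78 in T2 and 0.251 in W2. MLOC_76989 averaged 1.70 CPM ± 1.76 in O24, 2.51 ± 1.18 in T24 and 0 in W24. Its means at 2 h were 4.99 ± 5.22 in O2, 1.76 ± 0.67 in T2 and 0.186 in W2. Both were called higher in O24 and in T24 than in W24. MLOC_13618 averaged 174 CPM ± 21.7 in O24 and 11.2 ± 4.18 in T24 (SD, n = 4) with ratios under 2 in the other treatments.

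The rule set a floor under every treatment but no order among them, so the treatments were next compared with each other in the same edgeR model over all tested genes. The replicates that chose the members also enter these contrasts, and each count of members is therefore given beside the share of all tested genes. Over time, the members called under feeding were higher at 24 h and those called after wounding were lower. From the early to the late time point of *O. pratensis*, 22 of 32 members were called higher in O24 than in O2 and 0 lower, against 18.3% higher and 13.1% lower of all tested genes. For *T. urticae*, 20 were higher in T24 than in T2 and 0 lower (10% and 3.26% of all genes). After wounding, 24 members were lower in W24 than in W2 and 0 higher (15.4% and 11.5% of all genes). The median log2 fold change of the members was 1.74 in O24 over O2, 1.60 in T24 over T2 and -2.41 in W24 over W2, beside medians over all genes of 0.02, 0.03 and 0.04.

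The difference between these time courses was tested directly, though feeding went on and wounding was a single event. The change over time with *O. pratensis* exceeded that with wounding for 28 members and fell short of it for 0 (26.8% and 21.8% of all genes), and for *T. urticae* it did so for 31 and 0 (22.4% and 16.2%). The 4 members without a call for *O. pratensis* were MLOC_15761, MLOC_71416, MLOC_76936 and MLOC_8106, and for *T. urticae* it was MLOC_76936 (0.74, adjusted p = 0.407), genes named after their values were seen. In the 3 time contrasts, which share no library, 16 members were called higher at 24 h with both mites (9.04% of all genes), 11 of these were also lower in W24 than in W2 (2.6%), and 6 were called in neither mite but lower in W24 (8.67%).

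**Figure D3:**
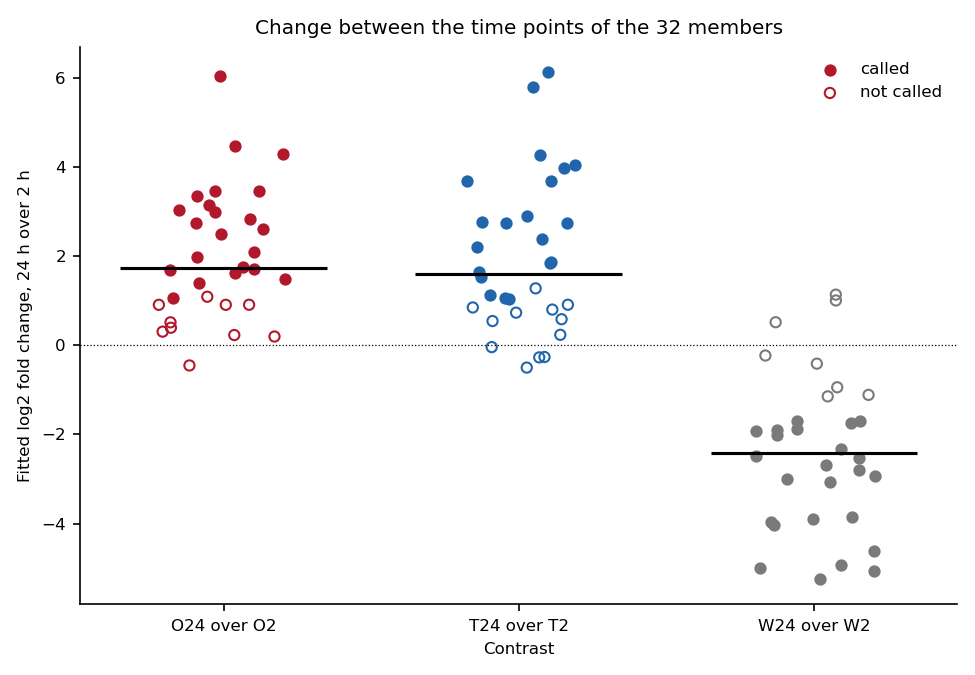
Fitted log2 fold change of 24 h over 2 h for each of the 32 members with *O. pratensis*, *T. urticae* and wounding (vertical axis), filled where called and open where not, with the median as a line. The medians are 1.74, 1.60 and -2.41.

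In T24 over T2 the largest called change was that of MLOC_37378 (log2 fold change 6.14), named after its values were seen. MLOC_65311 had the largest called change with *O. pratensis*, in O24 over O2. It had 1183, 981, 927 and 1059 CPM in O24, 463, 716, 731 and 1248 CPM in T24, and 29.3, 49.7, 79.4 and 56.9 CPM in W24. The libraries at 2 h gave 13.6, 27.1, 4.48 and 11.8 CPM in O2, 8.53, 11.6, 10.9 and 18.3 CPM in T2, and 39.3, 120, 140 and 71.8 CPM in W2, against 1.71, 2.54, 3.48 and 0.681 CPM in C. The late mite libraries were all above the rest, and the lowest early mite library was close to the highest control. Its log2 fold change was 6.04 ± 0.52 SE in O24 over O2 (adjusted p = 2.69e-10) and 5.80 ± 0.52 in T24 over T2 (adjusted p = 2.91e-09), while W24 over W2 (-0.94, adjusted p = 0.0509) was not called.

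MLOC_60357 had the largest fall after wounding. It had 17.6, 21.5, 37.3 and 19.8 CPM in W24 and 497, 981, 1047 and 780 CPM in W2, a log2 fold change of -5.24 ± 0.41 SE (adjusted p = 5.2e-11). In mite-infested leaves it had 216, 278, 181 and 189 CPM in O24, 87.9, 150, 186 and 207 CPM in T24, 70.3, 120, 26.5 and 79.0 CPM in O2 and 49.2, 50.1, 59.2 and 93.2 CPM in T2, against 2.06, 3.83, 4.14 and 1.90 CPM in C. The W2 libraries did not overlap with any other group, and the mean of W24 lay nearest to that of the controls.

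MLOC_5287 had the highest mean CPM over the 28 libraries of any member, not corrected for gene length. It was the most abundant member in W24, W2 and C, with 38.5% of the members' summed mean CPM in W2 and 36.3% in C, whereas MLOC_65311 led in O24, MLOC_13463 in T24 and MLOC_5183 in O2 and T2. It had 616, 828, 585 and 572 CPM in O24, 339, 413, 382 and 519 CPM in T24, and 177, 163, 213 and 202 CPM in W24. The corresponding values at 2 h were 163, 323, 90.6 and 180 CPM in O2, 162, 190, 224 and 249 CPM in T2, and 1949, 3246, 3415 and 2657 CPM in W2, against 37.1, 42.6, 41.8 and 37.8 CPM in C. Every W2 library exceeded every library of any other group. W24 over W2 was -4.03 ± 0.27 SE (adjusted p = 2.14e-12), and O24 over O2 was 1.64 ± 0.25 (adjusted p = 2.2e-06). At the other end, MLOC_38752 and MLOC_60890 had the smallest range of ratios (2.09 and 2.18, against a median of 4.31 over the members). MLOC_60890 averaged 55.3 CPM in O24, 49.4 in T24, 24.6 in W24, 43.4 in O2, 61.0 in T2 and 113 in W2, against 2.01 in C. Neither mite time contrast of MLOC_60890 passed the test (O24 over O2, 0.20, adjusted p = 0.474, and T24 over T2, -0.50, adjusted p = 0.0934).

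Feeding and wounding were also compared at the same time after release of the mites or after wounding. At 24 h, 25 members were higher and 1 lower in O24 than in W24 (15.6% and 13.8% of all genes), and 23 were higher and 1 lower in T24 than in W24 (8.86% and 5.04%). The median log2 fold change of the members was 2.74 and 2.27 in these contrasts, which share the W24 libraries. At 2 h, when feeding may have begun later than wounding, the order was turned round. Of the members, 19 were lower and 1 higher in O2 than in W2 (16.7% and 9.64% of all genes), and 20 were lower and 0 higher in T2 than in W2 (16.5% and 9.47%), with medians of -1.61 and -2.07.

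The member below W24 with both mites was MLOC_67573, named here after its values were seen. It had 21.7, 24.4, 15.1 and 15.8 CPM in O24, 38, 37.6, 48.2 and 50.4 CPM in T24, and 121, 105, 146 and 122 CPM in W24. At 2 h it had 13, 25.7, 4.99 and 12.8 CPM in O2, 7.69, 6.92, 8.27 and 9.85 CPM in T2, and 543, 861, 785 and 719 CPM in W2, against 0.570, 1.01, 0.622 and 0.483 CPM in C. Both wounded groups were above every mite-infested library, and its ratio to C in W2 (9.28) was the highest of any member. Its log2 fold change was -2.78 ± 0.27 SE in O24 over W24 (adjusted p = 2.96e-09), -1.61 ± 0.26 in T24 over W24 (adjusted p = 2.02e-05) and -5.76 ± 0.31 in O2 over W2 (adjusted p = 5.79e-14). The opposite case at 2 h was MLOC_15761, the only member higher in O2 than in W2 (3.11 ± 0.75 SE, adjusted p = 0.000827).

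Whether the mites differed in the members was asked at each time point. At 2 h edgeR called 0 of 32 members between O2 and T2, as it did for all genes (0%). At an unadjusted p under 0.05 there were 5 of 32 members and 517 of 16948 genes, and DESeq2 called 0 members and 1 gene in all. At 24 h, 10 members were higher and 4 lower in O24 than in T24 (6.25% and 3.08% of all genes), and the median over members was 0.63 against -0.02 over all genes. Without T24 replicate 1, 8 members were called in place of 14. The log2 fold changes of the 10 ran from 1.25 to 2.67 and those of the 4 from -2.60 to -1.17, so the mites did not differ in a single direction over the group. The 4 lower members were MLOC_13463, MLOC_15761, MLOC_67573 and MLOC_8106.

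**Figure D4:**
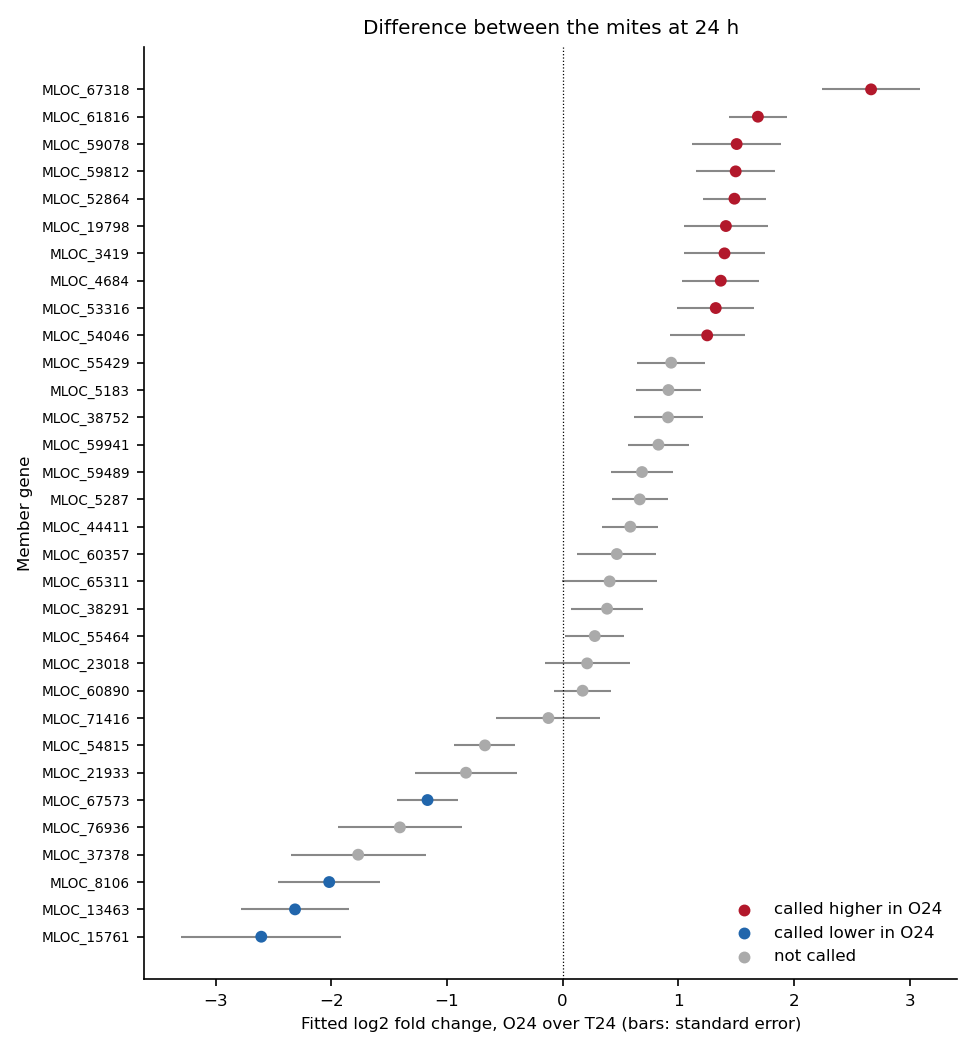
Fitted log2 fold change of O24 over T24 for each member (points) with its standard error (bars), coloured by the call. The 10 members called higher lie between 1.25 and 2.67 and the 4 called lower between -2.60 and -1.17.

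MLOC_67318 was the member most in favour of *O. pratensis*. It had 130, 159, 103 and 93.5 CPM in O24, 14.1, 24.2, 13 and 25.6 CPM in T24, and 10.4, 9.22, 14.7 and 8.64 CPM in W24. At 2 h it had 9.47, 21.1, 2.89 and 6.34 CPM in O2, 3.84, 4.61, 3.50 and 9.93 CPM in T2, and 13.1, 49.2, 32.4 and 32.2 CPM in W2, against 0, 0.278, 0.0414 and 0.0852 CPM in C. The O24 libraries overlapped with no other group, and O24 over T24 was 2.67 ± 0.42 SE (adjusted p = 2.37e-05).

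MLOC_15761 lay at the other extreme. It had 72.1, 42.5, 4.63 and 5.65 CPM in O24, 86.3, 136, 378 and 163 CPM in T24, and 12, 7.75, 3.80 and 2.74 CPM in W24. Early values were 27.5, 82.2, 9.65 and 36.0 CPM in O2, 11.8, 5.21, 9.18 and 14.4 CPM in T2, and 2.35, 4.90, 3.03 and 6.93 CPM in W2, against 0, 0.174, 0 and 0.0284 CPM in C. It was the member with its lowest ratio in W2, and in O24 replicates 1 and 2 stood well above replicates 3 and 4. O24 over T24 was -2.60 ± 0.69 SE (adjusted p = 0.00424), and this call was lost without O24 replicate 3, O24 replicate 4 or T24 replicate 3, with an adjusted p of up to 0.0255.

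MLOC_13463 took more of the reads than any other member in T24, 32.5% of the members' summed mean CPM. It had 741, 523, 211 and 344 CPM in O24, 2099, 2139, 2829 and 1993 CPM in T24, and 110, 75.6, 45.8 and 67.0 CPM in W24. At 2 h it had 97.2, 219, 37.5 and 160 CPM in O2, 83.7, 69.8, 98.0 and 161 CPM in T2, and 128, 228, 86.6 and 165 CPM in W2, against 5.17, 18.4, 4.85 and 10.8 CPM in C. No T24 library overlapped with any other group, while the 3 groups at 2 h overlapped with each other. O24 over T24 was -2.31 ± 0.46 SE (adjusted p = 0.000356) and T24 over T2 was 4.27 ± 0.51 (adjusted p = 2.88e-07). MLOC_8106, with 300, 255, 71.6 and 86.9 CPM in O24 and 600, 683, 1036 and 587 CPM in T24, differed by -2.02 ± 0.44 SE (adjusted p = 0.000852), again without overlap.

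The interaction of mite and time was called for 7 members, 3 with a larger change over time in *O. pratensis* and 4 with a larger change in *T. urticae* (2.86% and 1.85% of all genes). Of the 12 contrasts this count moved most with single libraries. It was 3 or 4 without any one of O2 replicate 4, T2 replicates 1, 2 or 3, O24 replicate 4 and T24 replicates 1, 2 or 3. The 4 were the members lower in O24 than in T24, in a contrast that shares those libraries, and the 3, named after their values were seen, were MLOC_44411, MLOC_52864 and MLOC_61816.

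Replicates of a group did not scatter independently from member to member. Averaged over the 32 members, the log2 ratio to C was 5.59 ± 0.41 in O24 (SD, n = 4 libraries), 5.34 ± 0.29 in T24, 3.17 ± 0.14 in W24, 3.37 ± 0.86 in O2, 3.25 ± 0.35 in T2 and 5.34 ± 0.45 in W2, with C at -0.05 ± 0.22. The spread was widest in O2, where the 4 libraries stood at 3.45, 4.33, 2.23 and 3.46. In O2, replicate 2 was the highest library for all 32 members and replicate 3 the lowest for 30, whereas over all tested genes replicate 2 was highest for 31.3% and replicate 3 lowest for 28.3%. In T2, replicate 4 was highest for 29 members (21.6% of all genes), and in W2, replicate 1 was lowest for 28 (28.4%). With O2 replicate 2 left out, 25 members in place of 22 were called in O24 over O2. The membership was also tied to single libraries, with 27 genes passing the rule without T2 replicate 4 and 39 without C replicate 2, and 24 of the 32 members passed whichever of the 28 libraries was left out.

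**Figure D5:**
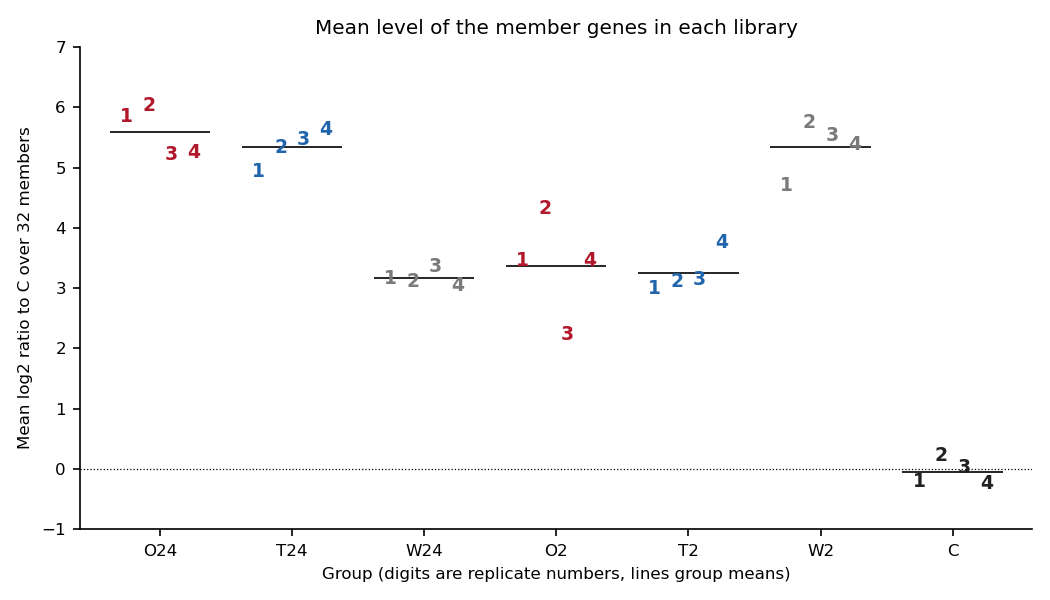
Mean log2 ratio to C over the 32 members in each library (digits give the replicate number) and the mean of each group (lines). O2 replicates 2 and 3 stand at 4.33 and 2.23, the widest spread of any group, and every treated library lies above every C library.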

How the data were processed

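RNA-seq of poly(A) RNA was analysed for 28 barley leaf libraries in 7 groups of 4, with groups and replicate numbers taken from the labels. The authors mapped stranded paired-end reads with STAR (2.5.1b in the submitters' processing notes) to the barley assembly ASM3268v1 from Ensembl, and HTSeq 0.6.0 in reverse-strand mode gave the number of uniquely placed reads at each locus. The deposited table holds these counts without normalization. Reads shared by near-identical genes were not counted, so members of close gene families are uncertain.

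CPM are counts over the library total. Counts were tested in R 4.3.3 with edgeR 4.0.16 (limma 3.58.1): filterByExpr (minimum count 10), TMM, glmQLFit and glmQLFTest with 1 mean per group over all libraries and p-values adjusted over 16948 genes, all 32 members among them. Calls needed a log2 fold change over 1 in size with an adjusted p under 0.01, and a standard error is the log2 fold change over the root of F. Alternatives were DESeq2 1.42.0, upper-quartile scaling, library size alone, no filter, a replicate block, an adjusted p under 0.05, other settings of the rule and each library left out. The code was tested on simulated data. No pair of replicates agreed within sampling noise (chi-square per gene of at least 8.59 over 42 pairs, where 1 is noise).

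The members and gene lists were chosen with earlier results of these data known. Genes named in the text by rule are those an orthologue table or the gene lists identify, the terpene synthases in the study's text, and, by identifier, pairs of members with the highest mean CPM, highest mean ratio, smallest range of ratios and nearest to the threshold, and those with the largest called changes in O24 over T24, O24 over O2 and W24 over W2. Members outside this rule are MLOC_59812, MLOC_71416, MLOC_76936, MLOC_67573, MLOC_44411, MLOC_52864, MLOC_61816, MLOC_37378 and MLOC_5183, named after their values were seen. The study's table of reciprocal best BLASTP matches to *Arabidopsis* was used in part (1998 genes, 1 of them a member), so other members have no name here. None of the identifiers matched the RefSeq list (0 of 25592), and sequences of the members were not used here.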

Additional observations from a re-analysis of the deposited data

Results flagged for a closer look

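The change over time under feeding and under wounding differed in the interaction tests for 28 members with *O. pratensis* and for 31 with *T. urticae*, and for the AOS orthologue MLOC_21933 by 4.20 and 5.25 on the log2 scale. The interaction of mite and time was called for 7 members. Their log2 differences, *O. pratensis* less *T. urticae*, were -2.59 for MLOC_13463, -4.49 for MLOC_15761, -1.91 for MLOC_67573 and -2.40 for MLOC_8106, and 1.34 for MLOC_44411, 1.95 for MLOC_52864 and 1.72 for MLOC_61816. Under 22 alternatives each, the call held in all for MLOC_15761, MLOC_52864 and MLOC_67573. It held in 12 for MLOC_61816, 11 for MLOC_13463, 9 for MLOC_8106 and 5 for MLOC_44411.

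Of 119 sets of 4 libraries examined, 6 had 1 library far from the other 3, a number that chance alone gives at about 1 in 20. MLOC_8106 had 221 CPM in W24 replicate 1, where the highest of the others was 108 CPM. MLOC_54046 had 23.6 CPM in T2 replicate 4 (others 12.3 to 13 CPM) and MLOC_60890 had 42.4 CPM in T24 replicate 1 (others 51.5 to 52.2 CPM). For MLOC_15761, C replicate 2 had 0.174 CPM and the others at most 0.0284 CPM. The chitinase orthologue MLOC_13056, which is not a member, had 10.8 CPM in T24 replicate 4 (others 5.81 to 6.08 CPM) and 2.64 CPM in T2 replicate 4 (others 1.61 to 1.72 CPM).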

How the results depend on the processing

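The number of members depended on the rule, with 88 genes when 0.1 CPM was added and 20 when 1 CPM was added, and 80 at a log2 ratio of at least 1.5 and 15 at 2.5. It was 32 by group medians (30 shared), 31 with TMM-scaled CPM and 27 to 39 with 1 library left out. Among the 12 contrasts, the interaction of mite and time moved most, to 13 members at an adjusted p under 0.05, 4 with no filter and 3 to 8 with 1 library left out. O24 over T24 ranged from 8 to 15 with 1 library left out. All other counts of called members stayed within 1.5 times of the values given. Of 130 calls of 16 of the named members, 114 held under every alternative, 16 were lost under at least 1, and 0 reversed. These 16 are the members named by rule and those called in the interaction of mite and time. The other named members were not included. With 1 replicate number left out, the share of chosen genes that reached 2 in the left-out library ranged from 94.4% to 100% in O24, 97.0% to 100% in T24, 75% to 95.8% in W24, 50% to 95.8% in O2, 66.7% to 100% in T2 and 90.9% to 100% in W2.

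Scaling moved the background more than the members. Upper-quartile factors shifted the median log2 fold change of all genes to 0.22 in W24 over W2 and raised the higher share of all calls there to 56.2% against 42.7%, and in O2 over W2 to 51.5% against 36.5% and in T2 over W2 to 51.7% against 36.4%. Library size alone gave 88.7% against 75.4% in T24 over T2 and 51.2% in W24 over W2. The members called in W24 over W2 remained 24 lower and 0 higher in number under both.

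The study used randomized blocks, but the labels do not say that a replicate number marks a block. Deviations of same-numbered libraries had a median r of 0.08 over 84 pairs, 35 of them over 0.1, against -0.01 for other pairs, and 14 of 28 libraries correlated best with their own number, a hint from the data that was not taken as pairing. A replicate block changed the count for the mite and time interaction to 5 and no other count of called members. Depth limits the ratios of the 6 members with under 10 counts in C.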
